A study of Homo sapiens with 1 sample.

Results

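The replication-dependent histone genes were examined in the ATAC-seq peak list of 786-O cells carrying an empty vector. 786-O is a much used human cell line from a clear cell renal carcinoma, and ATAC-seq uses the Tn5 transposase to mark open chromatin with sequencing adapters. The list came from 1 library, a control for overexpression of DPF3a, an isoform of the SWI/SNF remodelling subunit DPF3, and the DPF3a library is not analysed here. The peak names in the list carry the letters WT, whereas the sample label gives the empty vector, and the label was followed. There was no replicate, so the values describe this library, no p-value is given, and differences between genes cannot be set against a replicate error. The members were the GENCODE protein-coding genes named H1-1 to H1-6, or H2AC, H2BC, H3C or H4C followed by a digit. These were 70 of 20033 protein-coding genes, with 6 H1, 17 H2A, 19 H2B, 13 H3 and 15 H4 genes. Of these, 55 were on chromosome 6 and 13 on chromosome 1, while H4C16 was on chromosome 12 and H2BC12L on chromosome 21.

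Replication-dependent histone genes supply the core histones H2A, H2B, H3 and H4 and the linker histone H1 that package newly made DNA in S phase. They stand in clusters of many similar copies, H2A and H2B genes often start back to back from a shared promoter, and NPAT switches them on at the histone locus body, a nuclear body that forms on the clusters. Their mRNAs carry no poly(A) tail and end in a stem-loop that is bound by SLBP.

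The stem-loop, which the selection of genes did not use, was found by its known consensus within 150 bases of the stop codon in 69 of the 70 genes. It was found in 4 of 19963 other protein-coding genes. It lay 22 to 67 bases after the stop codon, with a median of 35, and H2BC12L was the gene without it. The commonest forms are shown because they mark the class of mRNA, with every base of the loop in capitals as all of it matters. They are the transcript strand of hg38, with T for U.
Form in 40 genes: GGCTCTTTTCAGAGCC
Form in 10 genes: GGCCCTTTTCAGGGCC
Form in 9 genes: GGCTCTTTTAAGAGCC
Form in 4 genes: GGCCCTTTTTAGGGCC
The other 6 forms were each present in 1 gene. The stem-loop was present in the 43 genes with an accessible promoter and in 26 of the 27 without.

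A promoter was counted as accessible when the summit of a peak lay from 1 kb upstream to 100 bp downstream of any transcription start site (TSS) of the gene. This held for 43 of the 70 histone genes (61.4%; exact 95% interval over genes, 49.0 to 72.8), against a background of 61.4% of all protein-coding genes. By this definition the share of accessible promoters was that of all genes. The peaks were lower, however. The fold enrichment, the authors' ratio of the reads piled up at a summit to the genome-wide background, had a median of 14.9 over the 43 histone genes and a range of 5.15 to 33.0. Over the 12256 other protein-coding genes with a promoter summit the median was 26.3, and 5 of the 43 histone genes were above it. The depth behind these values was modest, since the 14.9 corresponds to 28 reads or fragments piled up and an exact Poisson 95% interval of 10.1 to 21.4. That interval is the counting error of 1 summit of this height and not of the median. The quartiles over the 43 genes were 9.53 and 22.9. Widths were close, at a median of 1255 bp for the histone genes and 1195 bp for the others. Because neighbours share peaks, the 43 genes rested on 33 separate summits, and the interval over genes treats them as more independent than they are.

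**Figure D1:**
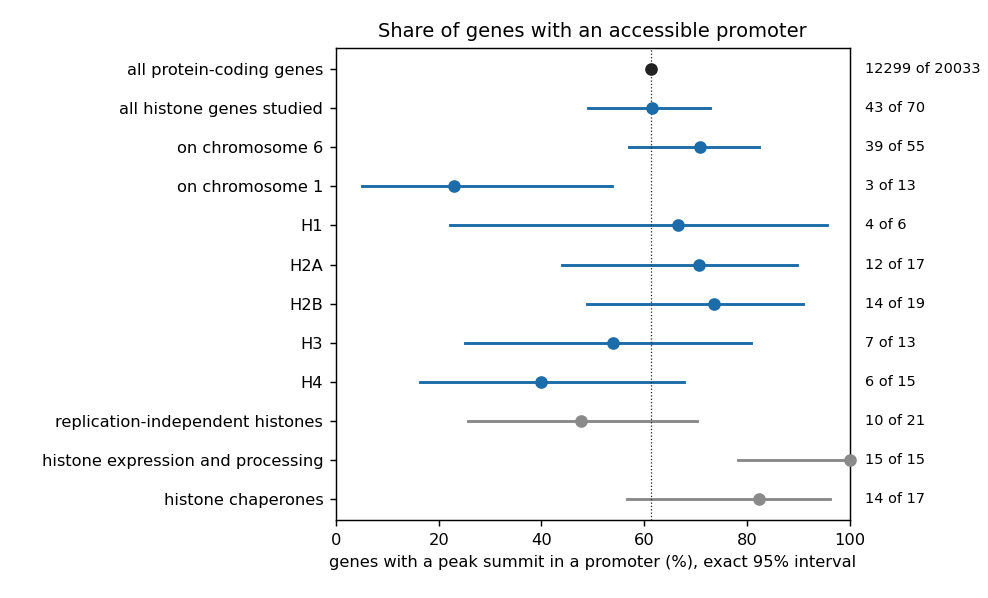
Percentage of genes with a peak summit in a promoter (x axis) for the groups on the y axis, with the number of genes on the right. Points are the shares, lines the exact 95% intervals over genes, and the dotted line the 61.4% of all protein-coding genes. Chromosome 1 is at 23.1% and chromosome 6 at 70.9%.

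Accessible promoters were more frequent in the chromosome 6 clusters than in those of chromosome 1. On chromosome 6, 39 of 55 histone genes had a promoter summit (70.9%; 57.1 to 82.4), compared with 521 of 996 other protein-coding genes of that chromosome (52.3%). On chromosome 1 it was 3 of 13 (23.1%; 5.04 to 53.8), compared with 1270 of 2048 others (62.0%). The 2 intervals do not overlap, but the genes of a cluster are not replicates and the difference was not tested. Duplicated sequence, taken up below for the histone genes, was not examined for the other genes of either chromosome. The median fold of the 39 chromosome 6 genes was 14.9, and those of the other accessible genes were 26.3 on chromosome 6 and 29.9 on chromosome 1.

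On chromosome 6 the genes lie in 4 runs with gaps of over 200 kb between them. The largest run, chr6:26017032-26285638, held 32 histone genes, of which 22 had a promoter summit. It also held 38 summits in 269 kb, 18 of them at histone promoters and 3 in a histone gene only. The other 17 lay between the genes, and their folds had a median of 11.9 and reached 19.1 at most. The runs chr6:27125897-27147562 and chr6:27807479-27893891 had 4 of 5 and 13 of 16 genes accessible. The outlying pair H2AC1 and H2BC1, known as testis histone genes, had neither a promoter summit nor any other summit between chr6:25723397 and 25727345.

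The chromosome 1 genes lie in 2 runs. In the first, chr1:149782689-149887965, 3 of 11 genes had a promoter summit. H2AC21 (ENSG00000184270.6, chr1:149887469-149887965, minus strand) had the highest, with a fold of 26.8 (20.1 to 35.1) and a summit 118 bp upstream of its TSS. Its peak, chr1:149884649-149889220, was 4572 bp wide and also covered the TSSs of H2BC21 (ENSG00000184678.11, chr1:149884459-149886682) and H2AC20 (ENSG00000184260.6, chr1:149886918-149887411), whose own starts lay 1401 and 1165 bp from that summit. H2BC18 (ENSG00000203814.7, chr1:149782689-149812373) had a fold of 6.18 (3.34 to 10.7) in the peak chr1:149812130-149812701, 79 bp downstream of its TSS. H2AC19 (ENSG00000288859.1, chr1:149851061-149851594) had a fold of 5.15 (2.64 to 9.32), the lowest the list can hold, in chr1:149849904-149850247, with the summit 966 bp upstream, just inside the promoter limit. Of the 3, H2AC21 alone exceeded the median fold of other accessible promoters.

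The remaining chromosome 1 genes had none. H3C13 (ENSG00000183598.4, chr1:149813225-149813693), H2AC18 (ENSG00000288825.1, chr1:149842218-149842750), H3C15 (ENSG00000203852.4, chr1:149852608-149853125) and H3C14 (ENSG00000203811.2, chr1:149840687-149841208) had their nearest summits 1402, 1618, 2513 and 3160 bp from the TSS. For H4C15 (ENSG00000270276.3, chr1:149854045-149861159) and H4C14 (ENSG00000270882.3, chr1:149832657-149839767) the distances were 11064 and 11711 bp. In the second run, H2AC25 (ENSG00000181218.6, chr1:228434777-228457873) and H2BC26 (ENSG00000196890.5, chr1:228458103-228463104) were 5436 and 5666 bp from a strong summit with a fold of 41.2, which lies downstream of the H2AC25 start and in neither promoter.

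Duplicated sequence was concentrated in the chromosome 1 genes. The study discarded reads of low mapping quality, which removes reads that fit 2 places equally. The 1.1 kb promoters were therefore aligned to the primary chromosomes, and a second copy was called at 95% identity or more over at least 90% of the promoter. H2BC18, H3C13, H4C14, H3C14, H3C15, H4C15 and H2BC12L had such copies, at 98.6 to 100% identity, and 1 of these 7, H2BC18, had a promoter summit (14.3%; 0.361 to 57.9). H4C14 and H4C15 are copies of each other, as are H3C14 and H3C15. None of the 55 chromosome 6 promoters had a second copy, and none of the 70 had one on the 261 alternative sequences of the reference. Outside duplicated sequence the shares were 42 of 63 in all (66.7%), 39 of 55 on chromosome 6 and 2 of 7 on chromosome 1 (28.6%; 3.67 to 71.0). H2AC18 and H2AC19 fell short of the definition, since their copies of 99.2% and 99.9% identity covered 80.6% and 78.8% of the promoter. The part of lost reads in the low chromosome 1 share was not tested, and for genes with a perfect copy an absent peak cannot be told apart from reads that could not be placed.

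Of the members outside these chromosomes, H4C16 (ENSG00000197837.4, chr12:14767999-14771131, minus strand) had a fold of 24.7 (18.3 to 32.7) in the peak chr12:14769409-14771420. Its summit lay 926 bp inside the gene as counted from the canonical TSS, so it counted only through another annotated TSS. H2BC12L (ENSG00000234289.6, chr21:43565182-43565648) was 21050 bp from the nearest summit and had a perfect copy elsewhere on chromosome 21.

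Shared divergent promoters were then examined. There were 13 pairs of histone genes whose canonical TSSs faced away from each other at most 1 kb apart. Of these pairs, 12 joined an H2A with an H2B gene, at distances of 194 to 251 bp, and H3C7 with H2BC9 was the other, at 979 bp. In 9 of the 13 a summit lay in the promoters of both genes (69.2%; 38.6 to 90.9). Among 970 head-to-head pairs without a histone gene of this class, 847 shared a summit, a background of 87.3%. The median TSS distances were alike, at 240 bp for the histone pairs and 233 bp for the others. The median fold of the shared summit was 19.1 for the histone pairs and 31.9 for the others.

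The highest shared summit was that of H2BC11 (ENSG00000124635.9, chr6:27125897-27132795) and H2AC11 (ENSG00000196787.4, chr6:27133043-27133535). It had a fold of 33.0 (25.5 to 42.0) and lay between the TSSs, 144 bp from the H2BC11 start, in the 3394 bp peak chr6:27131394-27134787. Next were H2AC15 (ENSG00000275221.2, chr6:27837880-27838375) and H2BC15 (ENSG00000233822.6, chr6:27838545-27855709), with 30.4 (23.2 to 39.2) in chr6:27836719-27838995. These 4 genes were, with H2AC21, the 5 highest of the class, and their folds lay above those of 63.9% and 58.7% of other accessible promoters.

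Intermediate folds were found at 5 pairs. H2AC17 (ENSG00000278677.2, chr6:27892699-27893185) and H2BC17 (ENSG00000274641.2, chr6:27893425-27893891) shared a fold of 23.7 (17.4 to 31.5) in chr6:27892705-27894727. H2BC12 (ENSG00000197903.8, chr6:27146361-27146855) and H2AC12 (ENSG00000274997.2, chr6:27147106-27147562) shared 23.2 (16.99 to 31.0) in chr6:27146640-27148110. H2BC4 (ENSG00000180596.9, chr6:26086317-26123926) and H2AC6 (ENSG00000180573.10, chr6:26124145-26139116) shared 19.1 (13.5 to 26.2) in chr6:26122428-26124608. All 3 intervals overlap, so these pairs were not distinguishable at this depth. H2BC8 (ENSG00000273802.3, chr6:26216200-26216688) and H2AC8 (ENSG00000277075.3, chr6:26216921-26217437) shared 16.5 (11.4 to 23.2) in chr6:26215217-26217591, and this was the 1 shared summit outside the space between the TSSs, 62 bp inside H2BC8. H2AC7 (ENSG00000196866.3, chr6:26198784-26199293) and H2BC7 (ENSG00000277224.3, chr6:26199516-26199988) shared 14.9 (10.1 to 21.4) in chr6:26198675-26200176. A readthrough gene, ENSG00000282988, is annotated with the same start as H2AC7.

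The weakest shared summits were at 2 pairs that lie near each other. H2BC13 (ENSG00000185130.6, chr6:27807479-27807929) and H2AC13 (ENSG00000196747.5, chr6:27808173-27808667) shared a fold of 9.28 (5.62 to 14.5) in chr6:27807696-27808297. H2AC14 (ENSG00000276368.2, chr6:27814302-27814777) and H2BC14 (ENSG00000273703.2, chr6:27815022-27815489) shared 5.67 (2.99 to 9.99) in the 340 bp peak chr6:27814730-27815069. The H2BC11 and H2AC14 pairs thus differed in fold well beyond the counting intervals, although both pairs have TSSs about the same distance apart, 248 and 245 bp.

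No summit was shared by the other 4 pairs. H2BC21 and H2AC20, 236 bp apart, lay inside the wide H2AC21 peak, so that 10 of the 13 pairs had both TSSs within 1 peak. H2AC25 and H2BC26, 230 bp apart, and H2AC1 (ENSG00000164508.6, chr6:25723397-25726562) and H2BC1 (ENSG00000146047.7, chr6:25726777-25727345), 215 bp apart, were over 5 kb from any summit, at 5936 and 6151 bp for the last 2 genes. H3C7 (ENSG00000277775.2, chr6:26250142-26250635) and H2BC9 (ENSG00000275713.3, chr6:26251614-26252075) had a summit each, 96 bp inside H3C7 with a fold of 9.79 and 211 bp inside H2BC9 with a fold of 6.18. In all, 19 of the 26 genes in pairs had a promoter summit (73.1%, interval 52.2 to 88.4, median fold 19.1). Outside pairs it was 24 of 44 genes (54.5%, interval 38.8 to 69.6, median fold 12.6). Both intervals include the background of 61.4% of all protein-coding genes. The 19 genes in pairs rested on 10 separate summits and the 24 others on 24, so summits shared by a pair were counted for both genes. The pairs hold H2A and H2B genes and H3C7, whereas all H1 and H4 genes stand outside them. Within families the counts were 9 of 12 in pairs and 3 of 5 outside for H2A, and 9 of 13 and 5 of 6 for H2B, so the direction was not the same in both.

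**Figure D2:**
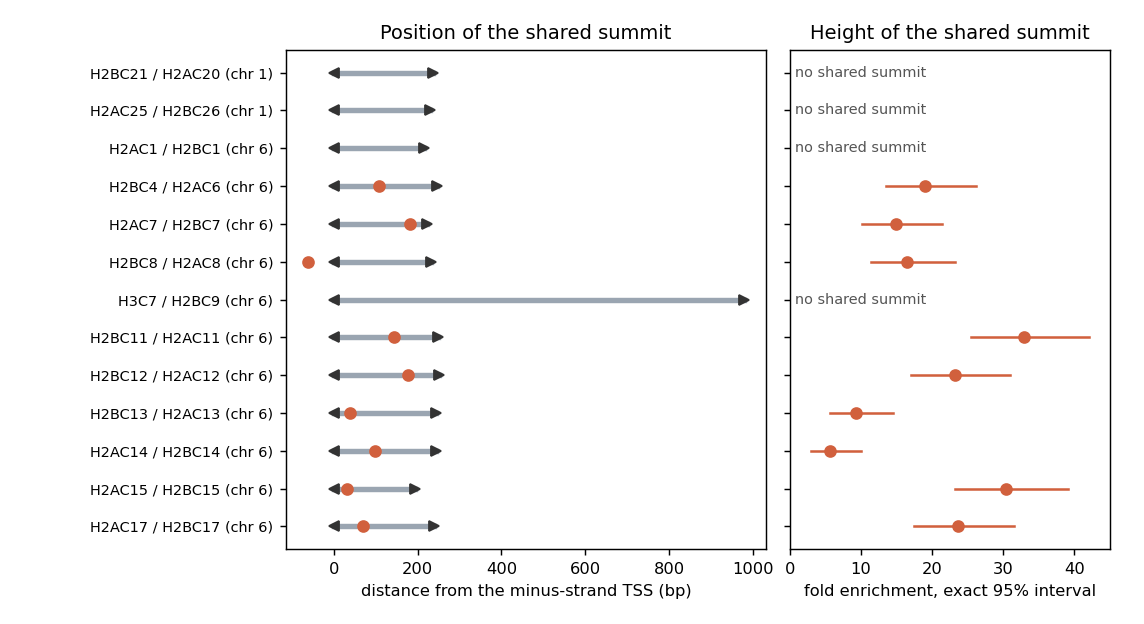
The 13 divergent histone gene pairs (y axis). Left, the distance in bp from the minus-strand TSS, with arrowheads at both TSSs pointing along each gene and a dot at the shared summit. Right, the fold enrichment of the shared summit with its exact Poisson 95% interval. In 8 of the 9 pairs with a shared summit the dot is between the TSSs, and folds run from 5.67 to 33.0.

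The sequences between the TSSs are shown for the pairs with the 2 highest and the lowest shared summits and for 2 pairs without any, to allow their elements to be compared. All are hg38, plus strand, with capitals for the TATA box (the letters TATAAA), the box with the letters CCAAT, and the octamer with the letters ATTTGCAT, the binding site of the POU factor OCT1 (POU2F1), on either strand.
H2BC11/H2AC11, chr6:27132796-27133042, plus strand: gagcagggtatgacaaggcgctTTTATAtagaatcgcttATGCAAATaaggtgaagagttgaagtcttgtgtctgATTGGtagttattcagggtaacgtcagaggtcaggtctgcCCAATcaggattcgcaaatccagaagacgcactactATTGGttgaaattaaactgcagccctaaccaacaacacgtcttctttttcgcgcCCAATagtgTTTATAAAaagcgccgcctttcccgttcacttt
H2AC15/H2BC15, chr6:27838376-27838568, plus strand: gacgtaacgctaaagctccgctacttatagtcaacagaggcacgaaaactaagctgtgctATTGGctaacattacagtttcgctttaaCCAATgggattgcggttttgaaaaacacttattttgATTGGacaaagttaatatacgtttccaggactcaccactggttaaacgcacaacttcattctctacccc
H2AC14/H2BC14, chr6:27814778-27815021, plus strand: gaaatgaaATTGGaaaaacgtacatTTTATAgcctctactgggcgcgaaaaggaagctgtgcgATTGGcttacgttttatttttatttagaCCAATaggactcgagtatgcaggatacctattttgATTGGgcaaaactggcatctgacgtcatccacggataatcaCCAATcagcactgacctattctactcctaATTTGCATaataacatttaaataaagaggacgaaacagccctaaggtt
H2BC21/H2AC20, chr1:149886683-149886917, plus strand: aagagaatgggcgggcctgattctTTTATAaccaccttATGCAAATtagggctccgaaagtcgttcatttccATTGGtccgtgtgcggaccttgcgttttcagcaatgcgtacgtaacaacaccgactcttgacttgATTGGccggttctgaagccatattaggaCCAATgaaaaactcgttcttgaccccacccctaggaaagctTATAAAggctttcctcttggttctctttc
H2AC1/H2BC1, chr6:25726563-25726776, plus strand: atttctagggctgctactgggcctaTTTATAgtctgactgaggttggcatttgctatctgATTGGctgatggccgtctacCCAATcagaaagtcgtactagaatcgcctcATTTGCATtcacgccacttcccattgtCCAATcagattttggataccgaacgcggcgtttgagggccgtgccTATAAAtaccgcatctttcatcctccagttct
The same elements were present in pairs with and without a shared summit. Of the 2 pairs shown without one, H2BC21 and H2AC20 lay inside the wide H2AC21 peak. All 12 H2A and H2B pairs held at least 3 CCAAT boxes, with up to 6 in H2BC12 and H2AC12. A TATA box was found in 9 pairs and an octamer in 9. H2AC15 and H2BC15, with the second highest fold, had neither of these in exact form, while H2AC1 and H2BC1, without a peak, had 2 TATA boxes and 1 octamer. The GC content of the 12 intervals was 38.3 to 48.9%.

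By family, H2B genes were most often accessible, at 14 of 19 (73.7%, median fold 16.5), followed by H2A at 12 of 17 (70.6%, 17.8), H1 at 4 of 6 (66.7%, 10.3), H3 at 7 of 13 (53.8%, 11.3) and H4 at 6 of 15 (40.0%, 15.2). The intervals of all families overlap, including those of H2B (48.8 to 90.9) and H4 (16.3 to 67.7). Each of them also includes the background of 61.4% of all protein-coding genes. On chromosome 6 alone the shares were 13 of 15 for H2B, 10 of 12 for H2A, 7 of 10 for H3, 4 of 6 for H1 and 5 of 12 for H4. H4 genes were therefore lowest also on chromosome 6, where no promoter met the definition of a second copy. H4C11 and H4C12, both without a promoter summit, did match each other at 97.9% identity. These matches covered 34.0% and 33.9% of the promoters, and their effect on the H4 share was not tested.

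**Figure D3:**
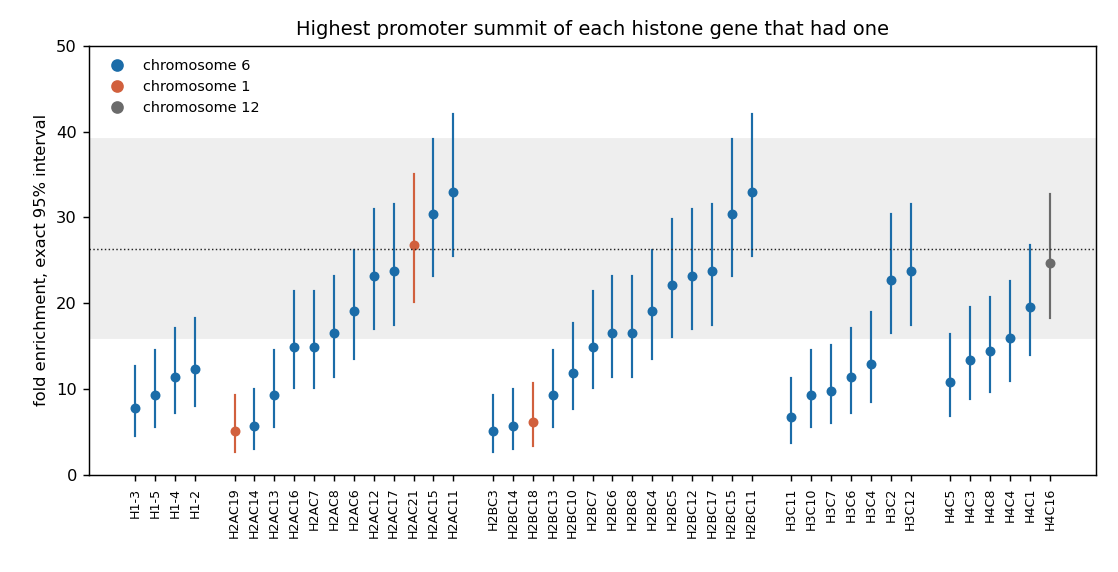
Fold enrichment of the highest promoter summit (y axis) for each of the 43 histone genes with one (x axis, grouped as H1, H2A, H2B, H3 and H4 from left to right). Points are folds, lines exact Poisson 95% intervals, and colours chromosomes. The dotted line and grey band are the median of 26.3 and the interquartile range of other accessible protein-coding genes. Points of 5 genes are above the dotted line.

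The H1 genes encode the linker histones that bind DNA between nucleosomes. All 4 accessible H1 genes had low and narrow peaks of 307 to 579 bp. The folds were 12.4 (8.03 to 18.3) at H1-2, 11.3 (7.21 to 17.1) at H1-4, 9.28 (5.62 to 14.5) at H1-5 and 7.73 (4.46 to 12.6) at H1-3, and these intervals overlap. Their summits lay close to or inside the genes, at 48, 60 and 77 bp downstream of the TSS in H1-2, H1-4 and H1-5 and 3 bp upstream in H1-3. In the other families most summits were upstream, at 11 of 12 in H2A, 10 of 13 in H2B, 4 of 6 in H3 and 5 of 5 in H4, counting summits within the canonical promoter. H1-2 had a further summit 415 bp past its gene end with a fold of 18.6 (13.1 to 25.6). H1-1 and H1-6, the latter known as the testis linker histone, had no promoter summit, and the nearest lay 3627 and 4315 bp away. The 120 bases upstream are shown for an accessible and an inaccessible H1 gene, in hg38 on the gene's strand, with capitals for the AC box AAACACA, an element described for H1 promoters, and for CCAAT.
H1-2, chr6:26056471-26056590, minus strand: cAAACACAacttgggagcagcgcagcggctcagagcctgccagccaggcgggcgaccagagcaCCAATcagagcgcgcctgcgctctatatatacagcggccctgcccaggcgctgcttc
H1-6, chr6:26108136-26108255, minus strand: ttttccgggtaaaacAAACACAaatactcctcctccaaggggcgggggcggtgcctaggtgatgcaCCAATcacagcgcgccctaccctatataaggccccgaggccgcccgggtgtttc
The AC box was present within 300 bp around the TSS in 6 of 6 H1 genes and in 4.19% of all protein-coding promoters, and so did not set the accessible H1 genes apart from the others.

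Outside pairs, H2AC16 had a fold of 14.9 (10.1 to 21.4) with its summit 7 bp downstream of the TSS, in a peak that covered the whole coding span. H2AC4 had its TSS inside the peak of H3C2, whose summit was 1510 bp downstream, and so was not counted. Among H2B genes outside pairs, H2BC5 reached 22.2 (16.1 to 29.8) and H2BC10 11.9 (7.62 to 17.7). H2BC3 (ENSG00000276410.4, chr6:26043227-26043713) was among the 5 lowest of the class, with 5.15 (2.64 to 9.32) in chr6:26043783-26044195, 244 bp upstream and not reaching its TSS. H2BC6 was accessible only through another annotated TSS, with a fold of 16.5 at a summit 11827 bp upstream of the canonical start, which itself lay in no peak.

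The H3 genes of chromosome 6 all encode the same protein, and 7 of these 10 genes had a promoter summit. The 3 chromosome 1 genes H3C13, H3C14 and H3C15 encode a form with the substitution C97S, counted from the initiator methionine as 1, and none had a promoter summit. H3C2 had a fold of 22.7 (16.6 to 30.4) with its summit 9 bp upstream, and H3C4 had 12.9 (8.44 to 18.9). H3C12 was listed at 23.7 through a distal TSS that shares the H2AC17 and H2BC17 summit, and its canonical promoter had 10.3. H3C6 (11.3) had its summit 918 bp upstream of the canonical TSS but at the start of the gene record, where another TSS is annotated, and H3C10 (9.28) and H3C11 (6.70) were low. The 3 remaining chromosome 6 genes each had a summit downstream of the promoter limit, at 138 bp in H3C3 (fold 6.70), 169 bp in H3C8 (6.18) and 963 bp in H3C1 (19.6), with the TSS inside the peak. In H3C1 this was the peak of its neighbour H4C1.

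H4 genes had the lowest share of accessible promoters, with an interval that overlapped those of all other families. Of the 15, 14 encode an identical protein of 103 residues, and H4C7 encodes one of 98 residues. The 6 accessible genes were H4C16 and, on chromosome 6, H4C1 (19.6, 13.9 to 26.8), H4C4 (15.97, 10.9 to 22.6), H4C8 (14.4, 9.68 to 20.8), H4C3 (13.4, 8.85 to 19.5) and H4C5 (10.8, 6.81 to 16.4). The intervals of the 5 chromosome 6 genes overlap. H4C2 and H4C13 had summits 763 and 102 bp downstream, with folds of 15.97 and 6.18. For H4C7, H4C6, H4C9, H4C12 and H4C11 the nearest summit was 3543, 5403, 6343, 6846 and 9217 bp away, and these 5 starts lay in no peak within clusters where most neighbours were accessible. Genes for the same protein thus included accessible and inaccessible promoters. The 120 bases upstream are shown for 1 accessible and 2 inaccessible H4 genes, with capitals for the TATA and CCAAT boxes and for the letters GTCCGC, the core of the site of the H4 factor HINFP.
H4C3, chr6:26103813-26103932, plus strand: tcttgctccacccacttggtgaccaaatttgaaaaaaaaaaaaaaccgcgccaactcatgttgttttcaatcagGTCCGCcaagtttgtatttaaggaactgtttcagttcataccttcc
H4C9, chr6:27139162-27139281, plus strand: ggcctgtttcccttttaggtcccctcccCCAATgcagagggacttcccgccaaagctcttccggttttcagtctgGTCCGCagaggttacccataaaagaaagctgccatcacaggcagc
H4C11, chr6:27823972-27824091, plus strand: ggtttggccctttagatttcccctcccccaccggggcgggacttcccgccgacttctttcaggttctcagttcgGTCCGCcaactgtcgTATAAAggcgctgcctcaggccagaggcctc
The HINFP core was found in 8 of 15 H4 promoters, 4 of 6 accessible and 4 of 9 inaccessible, and in 17.3% of all protein-coding promoters. The related GGTCCG, chosen after these sequences had been seen, was found in the 120 bases upstream of 5 of 6 accessible and 8 of 9 inaccessible H4 genes, compared with 6.27% of all protein-coding genes. Neither separated the accessible from the inaccessible H4 promoters.

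**Figure D4:**
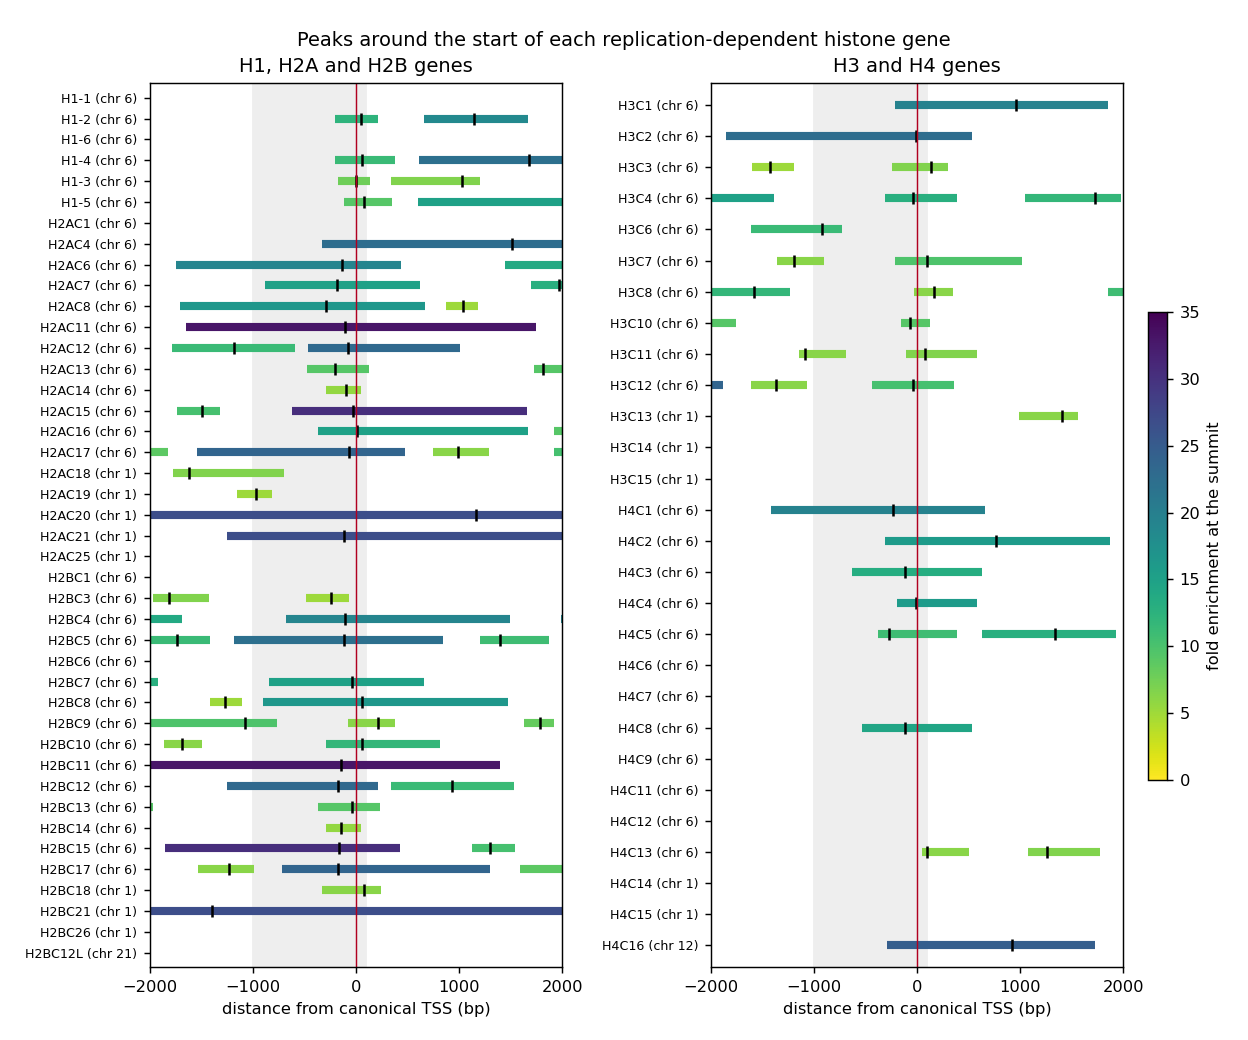
All peaks within 2000 bp of the canonical TSS of each of the 70 histone genes (y axis, with the chromosome), by distance from the TSS in bp with transcription to the right. Bars are peak intervals coloured by fold enrichment, black ticks are summits, the red line is the TSS and the grey band is the promoter from 1000 bp upstream to 100 bp downstream. H1 peaks are narrow, H2A and H2B peaks range from narrow ones such as that of H2AC14 and H2BC14 to the broad peak of H2BC11 and H2AC11, and 18 genes have no promoter summit, no summit within 1 kb downstream and no peak at the TSS.

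Peaks often covered whole genes, which are short and mostly without introns. The whole coding span lay in peaks for 29 of 70 genes and none of it for 22, with a median of 79.2%. This was 10 of 17 for whole spans in H2A, compared with 0 of 6 in H1. The cover of coding spans was not measured for other protein-coding genes, so these counts have no background beside them. The canonical TSS lay inside a peak in 47 of 70 genes (67.1%), against a background of 57.8% of protein-coding genes. These 47 starts were covered by 34 peaks, of which 12 covered more than 1 histone gene and the H2AC21 peak covered 3. For the 40 genes with their highest summit in the canonical promoter, the summit was at a median of 101 bp upstream of the TSS, compared with 103 bp in other protein-coding genes.

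The 27 genes without a promoter summit depended in part on the downstream limit. Of these, 6 had a summit from 100 bp to 1 kb downstream of the TSS, H4C13 at 102 bp being the nearest to the limit, while H3C7 at 96 bp was just inside. Another 18 had no such summit and a TSS in no peak, and H2AC4, H2BC21 and H2AC20 were covered by the wide peak of a neighbour. Summits beyond the promoter limit and up to 2000 bp downstream of the TSS that lay in no histone promoter were found at 14 of 70 genes, a share close to the 17.7% of other protein-coding genes.

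Promoter sequence set the class apart from most accessible genes. In the 300 bp from 250 bp upstream to 50 bp downstream of the canonical TSS, the median GC content was 44.2% over the histone genes and 66.3% over other accessible protein-coding genes. The 43 accessible histone genes had a median of 42.3%, and the 27 others 47.3%. Among other protein-coding genes with a promoter GC content of 41.3 to 47.6%, the interquartile range of the histone genes, 336 of 1302 had a promoter summit (25.8%; 23.4 to 28.3), with a median fold of 16.5. Within that range 26 of 36 histone genes had one (72.2%; 54.8 to 85.8), with a median fold of 20.6. Histone promoters were thus more often accessible than other promoters of similar GC content in this library, whereas by the same definition their share was that of all genes, and no test was made. Only GC content was matched, and divergent partners that share a summit were counted as separate genes. The ratio of observed to expected CpG had a median of 0.754 over the histone genes and 0.853 over other accessible genes.

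Motifs were counted on both strands in the same window, as a description of the letters present and not of bound sites. CCAAT was present in 59 of 70 histone promoters (84.3%) and 36.1% of all protein-coding promoters. TATAAA was present in 47 (67.1%) and 9.71%, and in 39 histone promoters it stood on the sense strand 20 to 40 bp upstream, compared with 3.95% of all. The GC box GGGCGG showed the opposite, with 18 (25.7%) and 61.3%. The octamer was found in 12 of 17 H2A and 15 of 19 H2B promoters, in none of the 34 H1, H3 and H4 promoters and in 1.62% of all. In 9 divergent pairs 1 octamer between the TSSs was counted for both genes, so these promoters are not separate sites. The octamer was thus a feature of H2A and H2B promoters, while the AC box was most frequent in H1 and the HINFP core in H4.

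Most of these motifs were present with and without accessibility. TATAAA was found in 30 of 43 accessible and 17 of 27 inaccessible histone promoters, CCAAT in 39 and 20, and the octamer in 20 and 7. The letters of the E2F site (TTTCCCGC, or TTTGGCGC, or TTTCGCGC), recognised by factors that act at the entry into S phase, were found in 14 of 43 accessible promoters and 1 of 27 inaccessible ones, and in 3.71% of all protein-coding promoters. As divergent genes share sequence and summits, these 14 genes stood for 9 summits. Most were H2A and H2B genes. In H2A the letters were in 6 of 12 accessible and 0 of 5 inaccessible promoters. In H2B they were in 6 of 14 and 0 of 5. Some of these promoters also resembled each other. H2BC11 matched the H2BC12 promoter at 85.6% identity over 59.6% of its length, and H2BC13 that of H2BC14 at 90.9% over 69.5%. The 9 summits are therefore not 9 unrelated sequences. The GC box was found in 4 of 43 accessible and 14 of 27 inaccessible histone promoters, whereas 73.5% of other accessible promoters held it. Inaccessible here means without a promoter summit, and 8 of these 27 genes had their TSS inside a peak. Among the 14 with a GC box, this held for H2BC21, H2AC20, H4C2 and H3C3. Of the rest, H3C13, H4C14, H3C14, H3C15 and H4C15 had promoters with a second copy.

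**Figure D5:**
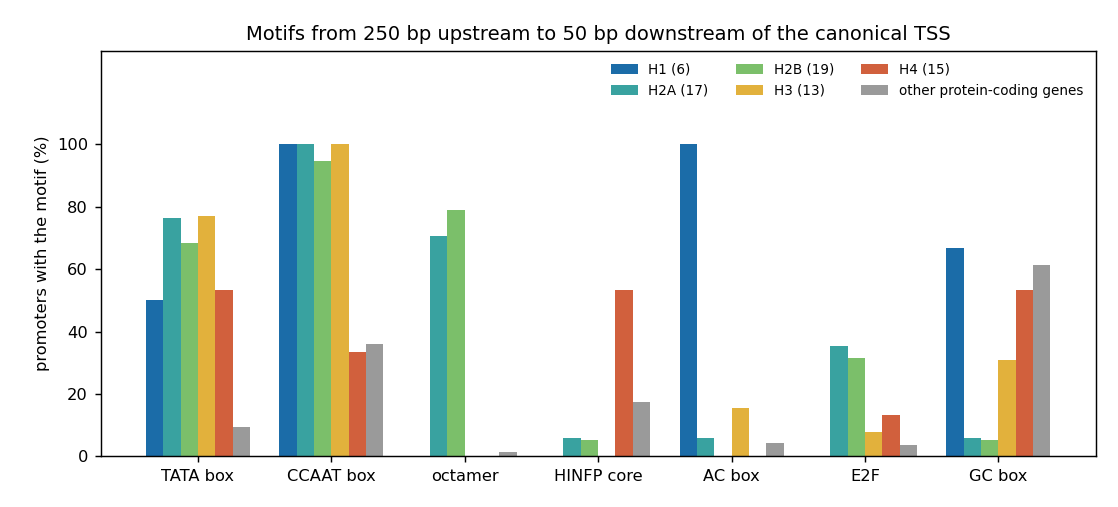
Percentage of promoters with each motif on either strand (y axis) for the motifs on the x axis, in the 5 histone families (number of genes in the key) and in the other protein-coding genes. Bars start at 0. The octamer bars are at 70.6% for H2A and 78.9% for H2B with none for H1, H3 and H4, and the AC box is at 100% for H1.

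Of 21 genes listed as replication-independent histone genes, 10 had a promoter summit (47.6%; 25.7 to 70.2), against a background of 61.4%. Over these 10 the median fold was 39.2. The highest was H2AZ2 (63.4, 52.7 to 75.6), which encodes a variant H2A, and the lowest MACROH2A2 (6.18), whose summit counted only through a TSS other than the canonical. None was found at H1-7, H1-8, H2AB1, H2AB2, H2AB3, H2BK1, H2BW1, H2BW2, H3-4, H3-5 or H3-7. The median was thus above the highest replication-dependent fold of 33.0, although H2AJ (26.8), MACROH2A1 (21.6), H1-10 (12.4) and MACROH2A2 were below that value.

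The genes that serve histone gene expression and mRNA processing were all accessible, at 15 of 15 (interval 78.2 to 100), against a background of 61.4%. Their median fold was 31.9, compared with 26.3 over all accessible protein-coding genes outside the replication-dependent class. NPAT was the highest (68.0, 57.0 to 80.6), SLBP had 41.7 (33.2 to 51.8), and CPSF2, which encodes a subunit of the cleavage complex, was the lowest (10.8, 6.81 to 16.4). Of 17 histone chaperone genes 14 were accessible (82.4%, interval 56.6 to 96.2), and this interval includes the background of 61.4%. Their median fold was 37.6, the highest being ASF1B (59.3, 49.0 to 71.1) and the lowest CABIN1 (7.73, 4.46 to 12.6, at a TSS other than the canonical). ATRX had its nearest summit 113 bp from the TSS, outside the promoter limit, while for NAP1L4 and DAXX it was 57757 and 206779 bp away. Second copies of these promoters were not examined. Of the kidney and clear cell carcinoma markers, PAX8, PAX2, EPAS1, VIM and NNMT had a promoter summit and CA9 had none. Of the markers of other cell types, PTPRC, CD3E, ALB and MYOD1 had none, while GFAP had one. In NNMT and GFAP the summit lay at a TSS other than the canonical.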

How the data were processed

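ATAC-seq was carried out on 1 library of 786-O cells with an empty vector, the only group. Per the study's methods, read pairs were trimmed (fastp) and mapped to hg38 (Bowtie2), and the authors then dropped duplicates, mitochondrial reads and reads with a low mapping quality before MACS2 called peaks for each library against a genome-wide background. The submitters' processing notes name Bowtie2 2.3.4.3 and MACS2 2.2.6. A shift of reads for Tn5 is not stated in the sources used here. The deposited list gives intervals and summits in hg38 with the fold (a ratio of summit pileup to background, each plus 1), the −log10 p-value and −log10 q-value of the peak caller, and a score, whose lowest value was 52. The deposited p and q values were not used.

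The list held 88676 peaks, 88615 of them on the 24 primary chromosomes, which were analysed. Pileups were recovered from the folds (largest departure from a whole number, 1.83e-05), with a background of 0.941 and a lowest summit of 9. The total number of reads is unknown. Folds carry exact Poisson 95% intervals of the pileup and shares exact Clopper-Pearson 95% intervals. PCR reads are not independent molecules, so these intervals cover counting error only. The annotation was GENCODE release 44. RefSeq starts (GRCh38.p14) were given for 64 of the 70 genes and were the same in all 64. Proteins were translated from the annotated coding sequence and compared within a family with the commonest one. Python 3.11.15 with numpy 2.4.6, pandas 2.3.3, scipy 1.17.1, pysam 0.24.0 and matplotlib 3.10.9 was used, and promoters were aligned with BLAST 2.17.0. Functions were tested on simulated data.

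The members and lists were chosen with earlier results of these data known. Named in full are the 5 highest and 5 lowest folds, every divergent pair and every member outside chromosome 6. Every member without a promoter summit is named with its nearest summit, and from each comparison list the extremes and the genes without a summit. Other genes given with values, the GGTCCG letters, the range of GC content and the summits beyond the downstream limit were chosen after values were seen. Some listed items are not reported here and do not enter the list counts.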

Additional observations from a re-analysis of the deposited data

How the results depend on the processing

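No paired analysis was possible because only 1 library was analysed. Of 40 alternative values, 34 moved by less than the main interval. The share of all histone genes was 48.6% with promoters from 250 bp upstream to 50 bp downstream, 40.0% with peaks of a score above 200 and 75.7% when the peak interval had to overlap the promoter. For these settings the share of all protein-coding genes was not recomputed. They therefore cannot be set against the 61.4% of all protein-coding genes under the main definition. On chromosome 6 the share of histone genes was 56.4%, 47.3% and 83.6%. On chromosome 1 it ran from 7.69% (score above 100 or 200) to 46.2% (overlap), and was 15.4% in the narrow promoter, so it was below the chromosome 6 share under each alternative. The share of pairs ran from 53.8 to 84.6% and the median fold from 14.4 to 19.3. The alternative with the canonical TSS inside a peak was chosen after seeing the data and gave 67.1% of all histone genes. Depth limits the weak peaks most, since a fold of 5.15 rests on a pileup of 9, and genes that share a summit are not independent. Without a replicate or RNA, neither the variation of these values nor expression was measured.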
